A study of Mus musculus with 38 samples.

Results

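The smooth muscle contractile genes described here are 31 transcripts of the contractile apparatus of smooth muscle, of its anchoring structures, of its calcium channels and calcium store, and of its transcription factors. They were listed by symbol, and each symbol was matched to 1 of the 55416 Ensembl gene identifiers that stood in each of 3 count tables. All 31 were matched, and all 31 passed the filter on low counts in every table. They were compared in bulk RNA sequencing libraries of mouse intestinal tract from a series on colorectal cancer in mice given black rice or a control diet. The Apc set held 18 libraries: black rice, control diet and WT, in 6 groups of 3 by the letter F or M in the titles. The AOM set held 12 libraries, 3 for each of black rice F, black rice M, control F and control M. The third set had 8 libraries, 4 from black rice and 4 from control mice, without an F or M letter, and its table carried the letters FMT, which the labels did not explain. Apc and AOM stood in the titles without an allele, a dose or a time, the WT libraries had no diet label, and the age of the mice was not given in the sources used here. No label said whether libraries of a group came from separate mice, so p-values measured the spread between these libraries, which may be technical.

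Smooth muscle forms the outer muscle coat of the gut, a thin layer under the mucosa, and the walls of blood vessels. It contracts when calcium enters through voltage-gated channels or leaves the internal store, so that a calmodulin-dependent kinase phosphorylates the myosin light chain and myosin pulls on actin filaments. The filaments are tied to dense bodies in the cell and to attachment plaques at the membrane, which intermediate filaments connect. The contractile genes are switched on together by serum response factor, which binds the CArG box in DNA, and by its partner myocardin. In bulk tissue, fewer smooth muscle cells and less contractile RNA per cell cannot be told apart, and a piece of gut that holds more of the muscle coat also gives more of these transcripts.

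The CArG box is shown in its promoter setting because it is the sequence feature that a shared regulator of these genes would read, and because the rule for choosing the members did not use it. RefSeq promoter windows of build GRCm38.p6, from 250 bases before to 50 bases after a gene start, were found for 27 of the 31 members. No window was found for Actg2, Myh11, Tagln and Myocd. A CArG box, searched by its usual consensus, which reads the same on both strands, stood in the windows of 4 members. Only exact matches were counted, so a window without one may still hold a site that departs from the consensus. This was 5 of 35 member windows (14.3%), against 535 of 32851 windows of all genes (1.63%). The 5 include 2 overlapping windows of Ldb3 that hold the same box, so that site is counted in both. Such a match describes letters only. The 250 bases before the start of each of these 4 genes follow, 5′ to 3′ on the strand of the gene, with the boxes in capitals; Srf, which encodes serum response factor itself, held 2 of them.
Srf, chr17:46556163-46556412, minus strand: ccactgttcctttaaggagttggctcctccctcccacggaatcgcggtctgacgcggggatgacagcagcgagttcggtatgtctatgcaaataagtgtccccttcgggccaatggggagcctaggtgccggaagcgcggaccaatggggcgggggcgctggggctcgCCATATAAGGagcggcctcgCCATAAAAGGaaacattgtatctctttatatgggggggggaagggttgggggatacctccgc
Myl9, chr2:156775214-156775463, plus strand: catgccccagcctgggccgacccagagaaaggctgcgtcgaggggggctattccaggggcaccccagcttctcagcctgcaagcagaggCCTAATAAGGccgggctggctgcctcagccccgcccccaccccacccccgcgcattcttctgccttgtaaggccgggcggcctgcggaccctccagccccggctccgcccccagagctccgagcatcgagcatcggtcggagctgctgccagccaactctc
Ldb3, chr14:34588682-34588931, minus strand: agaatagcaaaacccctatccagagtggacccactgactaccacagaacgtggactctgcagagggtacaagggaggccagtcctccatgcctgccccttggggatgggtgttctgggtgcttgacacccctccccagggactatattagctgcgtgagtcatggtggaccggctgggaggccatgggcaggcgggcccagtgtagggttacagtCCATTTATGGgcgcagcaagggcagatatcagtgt
Dmd, chrX:82948620-82948869, plus strand: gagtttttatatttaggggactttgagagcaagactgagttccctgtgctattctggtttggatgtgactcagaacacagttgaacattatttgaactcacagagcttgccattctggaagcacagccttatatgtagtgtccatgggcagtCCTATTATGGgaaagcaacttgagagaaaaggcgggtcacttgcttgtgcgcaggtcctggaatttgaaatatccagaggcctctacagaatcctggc

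Depth was 44.8 to 61.9 M counted reads in the Apc set, 37.9 to 55.1 M in 11 AOM libraries and 66.6 to 91.1 M in the third set. In the AOM set, black rice F replicate 3 had 5.37 M reads, a summed level of 646 CPM (counts scaled to library size) for the 31 members, and 226032 CPM of hepatocyte markers, against at most 108 CPM in the AOM control libraries. It was left out of the AOM comparisons, so that black rice F had 2 libraries there, and results that included it are given beside those that did not. Levels of Xist, the RNA of X inactivation, were at least 333 CPM in all 15 F libraries and at most 0.848 CPM in all 15 M libraries, which matched the codes. In the 8 libraries of the third set Xist stood at 0.0549 to 0.416 CPM, inside the range of the M libraries. Skeletal muscle markers summed to 9.93 to 23.9 CPM in the Apc set, 12.3 to 28.6 CPM in 11 AOM libraries and 14.9 to 69.7 CPM in the third set. The label of the members held in the data for abundant transcripts: in every library but the one left out, Myh11 and Actg2 stood at 233 CPM or more. Other members were low, and in AOM black rice M replicate 1 Kcnmb1 stood at 5.42, Tagln at 2.54 and Myocd at 0.534 CPM.

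The thick filament motor, the thin filament actins and the small proteins bound to them made up most of the signal. Levels between genes are compared as median CPM per kilobase of exon, with exon lengths from GENCODE M21. In the Apc set the order was led by Myl9, the regulatory light chain of myosin, at 407 CPM per kilobase, followed by the smooth muscle actins Acta2 at 362 and Actg2 at 265 CPM per kilobase. Csrp1, a LIM protein of the actin cytoskeleton, stood at 258 CPM per kilobase, Cnn1 or calponin at 175, the myosin heavy chain Myh11 at 148, and desmin (Des) and the tropomyosin Tpm2 at 143 each. At the low end were Ryr2, the calcium release channel of the store, at 0.381 CPM per kilobase, and Myocd, the SRF partner myocardin, at 0.662 CPM per kilobase.

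In the other sets the actin of gut muscle came first. Actg2 reached 608 CPM per kilobase in the AOM set and 1604 CPM per kilobase in the third set, with Acta2 at 528 and 950 CPM per kilobase. The tables were made separately, so levels set across them are descriptions. Acta2 and Actg2 encode nearly identical proteins, and how the counting step shared reads between them was not given in the sources used here. The ratio of Actg2 to Acta2 counts ran from 0.365 to 0.711 in the black rice libraries of the Apc set, from 0.347 to 0.538 in its control libraries and from 0.437 to 0.643 in its WT libraries. The ratio of the third set ran from 1.03 to 1.16 in black rice libraries and from 0.81 to 1.33 in control libraries.

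Counts of Tagln, an actin-bundling protein also called transgelin, and of Pln, phospholamban, the brake on the calcium pump of the store, are uncertain. In GENCODE M21, exons of other genes covered 67.9% of the exon bases of Tagln and 64.7% of those of Pln, mostly on the opposite strand, and no strand option was recorded in the file headers. Tagln stood at a median of 3.35 CPM per kilobase in the Apc set, against 362 CPM per kilobase for Acta2. Gm48529, the gene that shares most of the Tagln exons, had a median of 6.76 CPM in the same libraries. Whether the overlap set these low values was not tested.

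The members spread widely from library to library, and whole libraries were high or low in most of them. The ratio of the highest to the lowest library had a median over the members of 2.47 in the Apc set, 5.1 in the AOM set without the library left out, and 7.11 in the third set. Over all tested genes with reads in every library, the medians of the same ratio were 2.73, 3.05 and 1.86 in that order of sets. Ratios grow with the number of libraries, so they are set against all genes of the same set and not against each other.

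**Figure D1:**
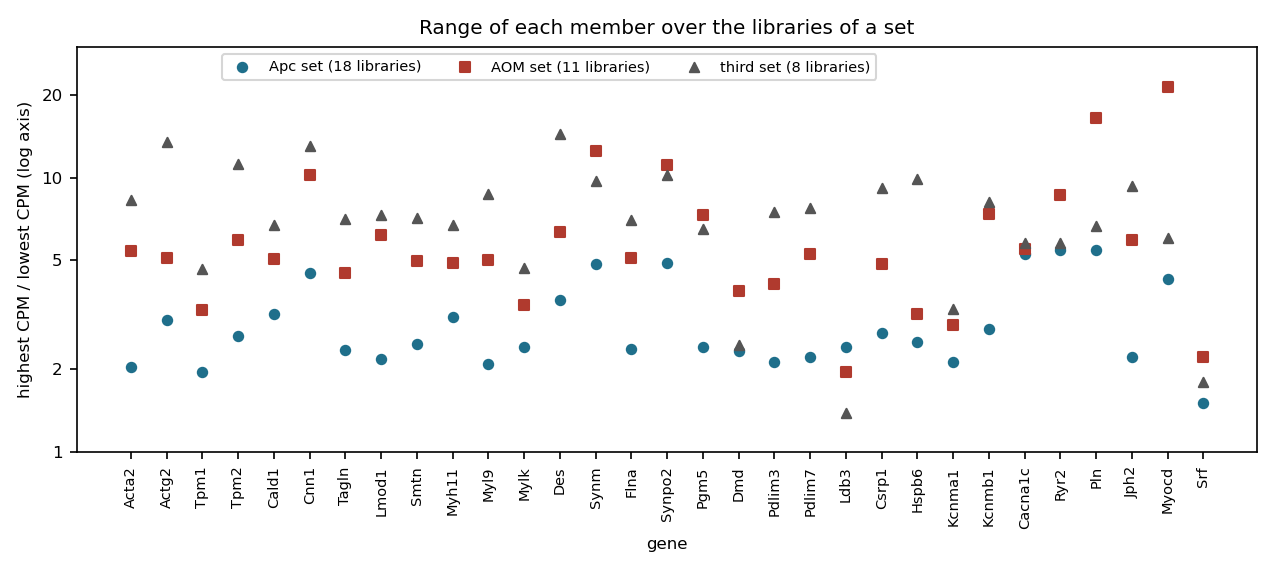
Highest CPM divided by lowest CPM of each member over the libraries of a set, on a log axis, in the order of the members' roles (circles, Apc set; squares, AOM set without the library left out; triangles, the third set). In the third set Des, Actg2 and Cnn1 spanned 14.4, 13.5 and 13.1 times, while Ldb3 spanned 1.38 and Srf 1.79 times.

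The third set showed this most plainly, within a single diet. Control replicate 2 had a summed member level of 45325 CPM and control replicate 4 had 5616 CPM. Every member was higher in control replicate 2, by 1.17 to 14.4 times with a median of 7.02. Des, the intermediate filament protein of muscle, differed 14.4 times between these 2 libraries, Myh11 6.74 times, the potassium channel gene Kcnma1 1.91 times, Srf 1.79 times and Ldb3, a PDZ and LIM protein of the Z-disc, 1.17 times. The 2 libraries were picked as the highest and the lowest, so the ratios carry no test. Epithelial markers summed to 17416 CPM in control replicate 2 and to 18680 CPM in control replicate 4.

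The M libraries of the AOM set held similar pairs, while libraries of a group differed less in its F libraries and in the Apc set. In AOM F libraries the summed level ran from 9816 to 11662 CPM on control and was 12940 and 12502 CPM in the compared black rice libraries. In the AOM set, black rice M replicate 3 exceeded black rice M replicate 1 in 31 of 31 members, by 1.86 to 11.5 times with a median of 4.58. Control M replicate 2 exceeded control M replicate 3 in 29 of 31 members, with a median of 2.59 times. In the Apc set the highest summed level of a group was 1.10 times the lowest in control F libraries and up to 1.60 times in WT F libraries. Black rice F replicate 1 exceeded black rice F replicate 3 in 28 of 31 members, with a median of 1.38 times.

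**Figure D2:**
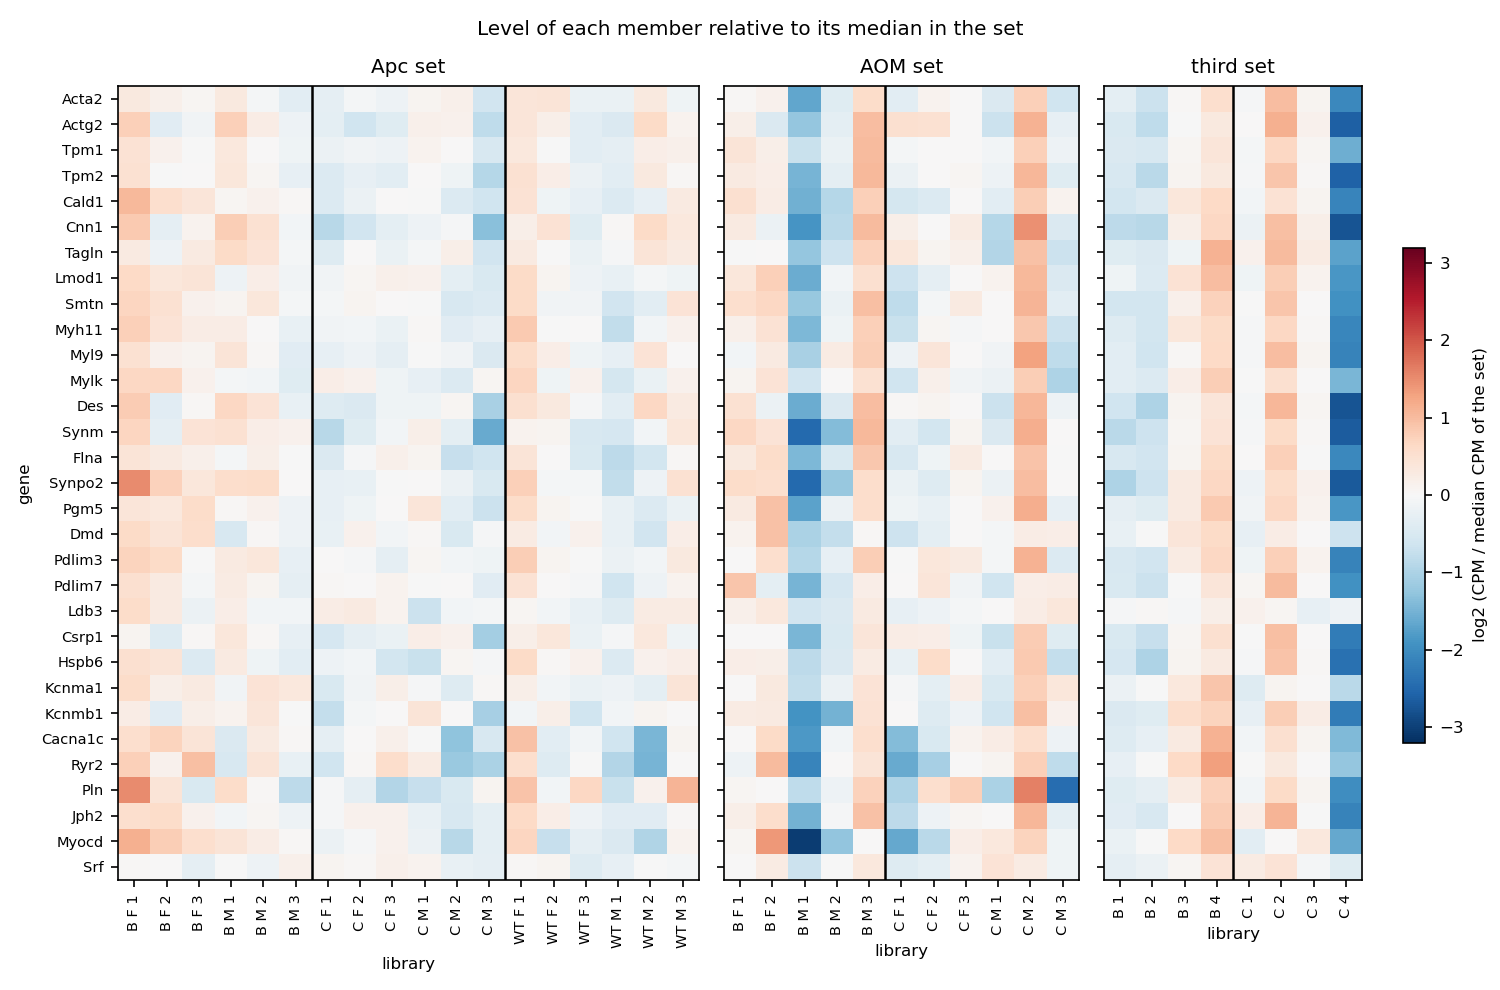
Level of each member (rows, in the order of their roles) in each library (columns; B, black rice; C, control; WT; F and M as in the titles) as log2 of CPM over the median of that gene in its set. Whole columns share a colour: black rice F replicate 1 of the Apc set, control M replicate 2 of the AOM set, and black rice replicate 4 and control replicate 2 of the third set had 31 of 31 members above the set median, and black rice M replicate 1 of the AOM set and black rice replicate 1 and control replicate 4 of the third set had 0.

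**Figure D3:**
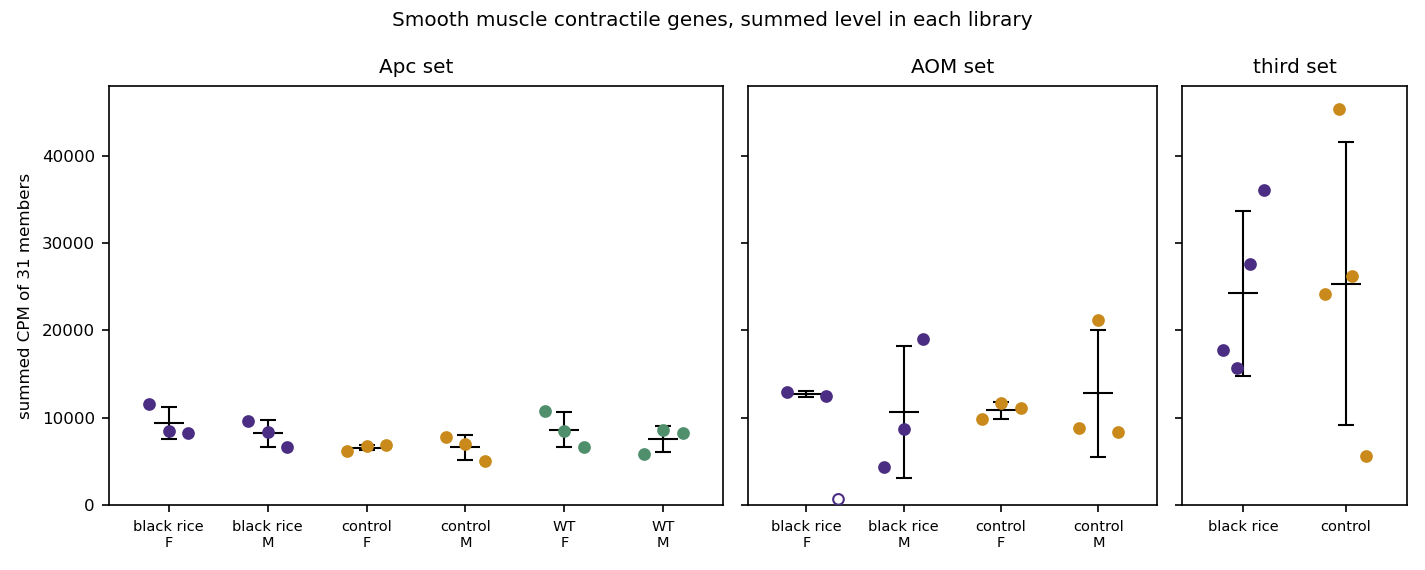
Summed CPM of the 31 members in each library (points) with the mean and SD of each group (black bars), the open circle being the AOM library left out. In the third set the 4 control libraries ran from 5616 to 45325 CPM and enclosed all 4 black rice libraries, at 15647 to 36107 CPM.

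In the Apc set the contractile genes stood higher in black rice than in control libraries, as a group and by modest amounts, but no member passed the test. The summed level had a lowest value of 6648, a median of 8391 and a highest of 11547 CPM in black rice libraries. In control libraries it ran from 5056 to 7786 CPM. Fitted differences were above 0 for 30 of the 31 members, against 49.1% of all 21624 genes tested, and the count was 31 with the RLE or DESeq2 scaling or without the filter. The median difference of the members was 0.42 on the log2 scale and that of all genes -0.01. An unadjusted p under 0.05 with a higher level was found for 18 members, against 4.21% of all genes, yet the smallest adjusted p among the members was 0.19 in edgeR's quasi-likelihood test. At the adjusted threshold of 0.05, 0 members and 3 genes in all (0.0139%) were called. Members rose and fell together by library, so these counts are not counts of 31 independent results.

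Among the genes of the actin filament, all 9 were higher, with a median log2 difference of 0.46. Acta2 had a lowest value of 634, a median of 856 and a highest of 987 CPM in black rice libraries, against 520, 733 and 885 CPM in control libraries. Actg2 had 323, 434 and 702 CPM in black rice libraries in the same order, against 233, 323 and 458 CPM in control libraries. For both actins the groups overlapped, with log2 differences of 0.23 ± 0.19 for Acta2 and 0.55 ± 0.28 for Actg2 (SE, 6 libraries in each group).

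Calponin and caldesmon, which bind actin and hold back the motor, differed more. Cnn1 ran from 388 over a median of 591 to 854 CPM in black rice libraries, and from 190 over 349 to 466 CPM in control libraries. Its groups overlapped in part, with all 6 black rice libraries above the control mean and a log2 difference of 0.88 ± 0.27 (adjusted p = 0.32). Cald1, caldesmon, ran from 191 over 224 to 383 CPM in black rice libraries, and from 121 over 152 to 190 CPM in control libraries. Its groups did not overlap, by 1 CPM, and it had the smallest p of the members, with a log2 difference of 0.66 ± 0.16 (adjusted p = 0.19). The tropomyosins Tpm1 and Tpm2, which lie along the actin filament, had log2 differences of 0.30 ± 0.17 and 0.47 ± 0.20. Lmod1, leiomodin, which starts new actin filaments, had 0.32 ± 0.13, and Smtn, smoothelin, a protein of contractile smooth muscle, had 0.46 ± 0.17. Tagln, with its uncertain counts, had 0.43 ± 0.18.

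The thick filament genes followed with smaller differences. Myh11 ran from 954 over a median of 1327 to 1919 CPM in black rice libraries, and from 870 over 1012 to 1155 CPM in control libraries. The 2 lowest black rice libraries lay inside the control range, and the log2 difference was 0.43 ± 0.19 (adjusted p = 0.47). Myl9 and Mylk, the light chain kinase, had log2 differences of 0.38 ± 0.19 and 0.24 ± 0.17.

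Both intermediate filament genes were higher by more than the median member. Des ran from 414 over a median of 637 to 938 CPM in black rice libraries, and from 262 over 443 to 564 CPM in control libraries, a log2 difference of 0.62 ± 0.27 (adjusted p = 0.45). Synm, synemin, had a log2 difference of 0.75 ± 0.26 (adjusted p = 0.37). In both the highest control libraries lay among the black rice libraries.

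Synpo2, the actin-binding dense body protein synaptopodin 2 or myopodin, had the largest difference of all members. It ran from 124 over a median of 182 to 349 CPM in black rice libraries, and from 86.9 over 106 to 123 CPM in control libraries. Its groups did not overlap, by about 1 CPM, with a log2 difference of 0.89 ± 0.23 (adjusted p = 0.23). Synpo2 and Cald1 were the 2 members with every black rice library above every control library, against 0.143% of all genes tested. All 9 genes of dense bodies and attachment plaques were higher, by 0.17 for Ldb3 to 0.89 for Synpo2. Flna, filamin A, which crosslinks actin, had a log2 difference of 0.42 ± 0.18, and Dmd, dystrophin, had 0.28 ± 0.11. The attachment plaque protein Pgm5 had 0.38 ± 0.14, Pdlim3, a PDZ and LIM protein, had 0.41 ± 0.17, and the small heat shock protein gene Hspb6 had 0.33 ± 0.22.

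Of the channels and store proteins, all 6 were higher. Kcnma1, the pore of the large-conductance potassium channel that relaxes the muscle, had a log2 difference of 0.45 ± 0.13 (adjusted p = 0.29). Cacna1c, the voltage-gated calcium channel, had 0.56 ± 0.24, and Ryr2 had 0.54 ± 0.29. Kcnmb1, the smooth muscle subunit that goes with Kcnma1, had 0.30 ± 0.22, and Pln, with its uncertain counts, had 0.76 ± 0.38.

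The 2 transcription factors parted. Myocd ran from 4.39 over a median of 5.95 to 9.34 CPM in black rice libraries, and from 2.29 over 3.72 to 4.71 CPM in control libraries. The groups overlapped in 1 black rice library, and the log2 difference was 0.80 ± 0.22 (adjusted p = 0.26). Srf, the member farthest against the others, ran from 39.3 over 47.4 to 53.3 CPM in black rice libraries, and from 39.2 over 49.7 to 53.6 CPM in control libraries. Its log2 difference was -0.01 ± 0.12.

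**Figure D4:**
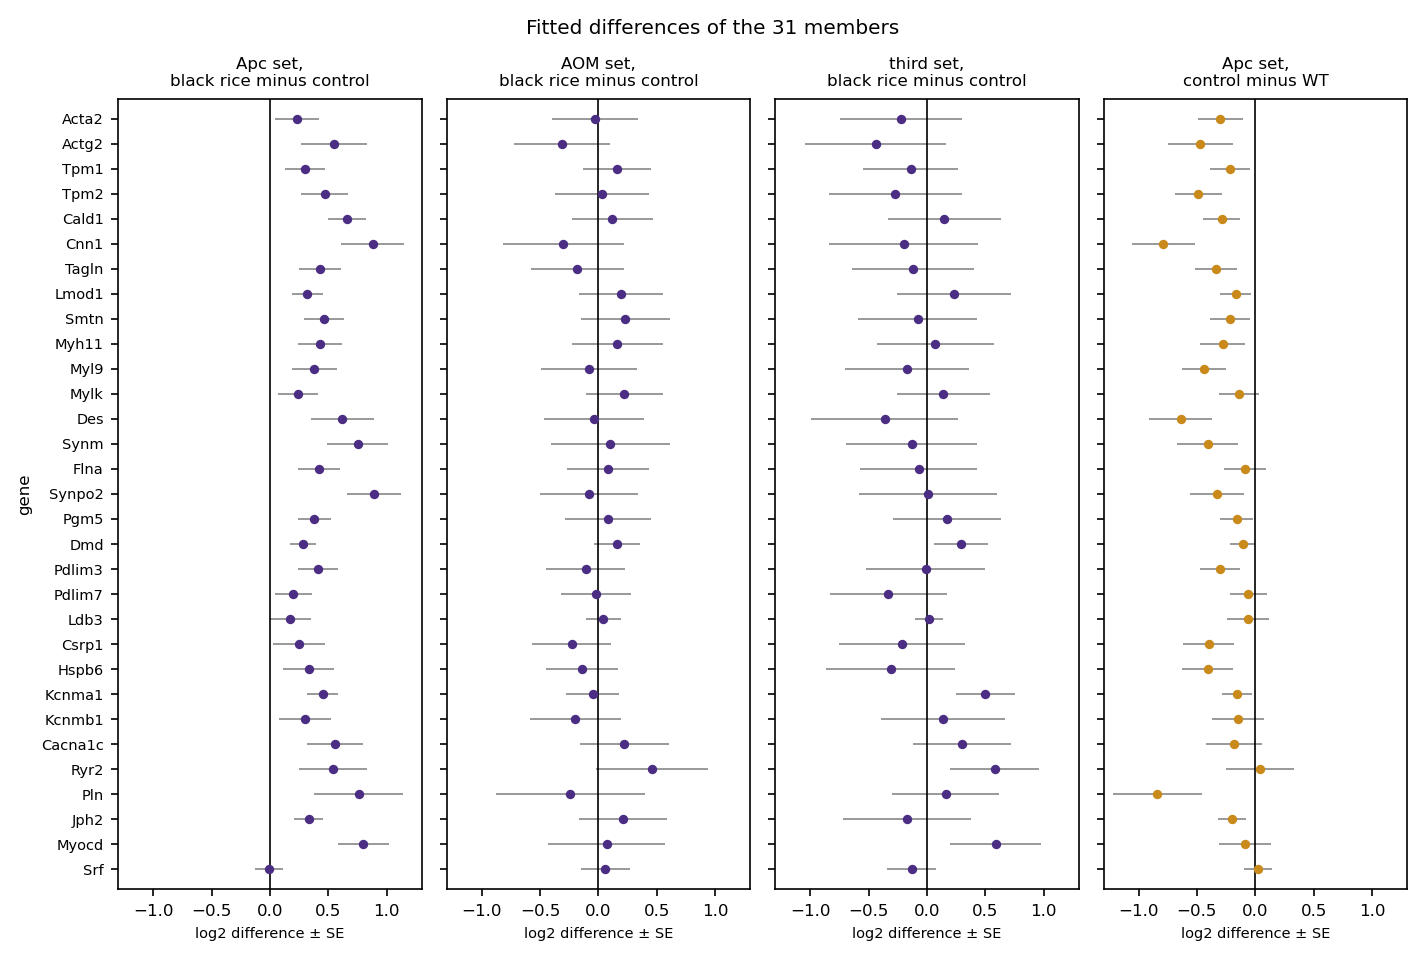
Fitted log2 difference with its SE for each member in 4 comparisons: black rice minus control in the Apc set, the AOM set and the third set, and control minus WT in the Apc set. In the Apc set 30 of 31 members lay above 0 for black rice minus control and 29 of 31 below 0 for control minus WT, while in the AOM set and the third set members lay on both sides of 0 with wider errors.

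DESeq2, run as an alternative on the same counts, called 3 members in this comparison, Cald1, Synpo2 and Myocd, beside 193 genes in all, and 1 member, Cald1, in its F libraries. No other alternative and none of the 18 fits without 1 library called a member. Without any 1 library, 30 or 31 members stayed above 0, with medians from 0.35 to 0.49.

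Split by code, the group was higher in both codes of the Apc set. In F libraries 30 of 31 members had a difference above 0, against 50.5% of all genes, with a median of 0.49. In M libraries the count was also 30 of 31, against 48.3% of all genes, with a median of 0.33, and 31 with RLE or DESeq2 scaling or without the filter. Without black rice M replicate 1 the M count was 28 with a median of 0.20, and without control M replicate 3 it was 27 with a median of 0.25. Among F libraries, all 3 black rice libraries stood above all 3 control libraries in 15 members, against 9.32% of all genes, and below them in 1 member, Srf, against 10% of all genes. In M libraries the first count was 4 members, against 4.82% of all genes: Cald1, Synpo2, Jph2 and Myocd. No member passed in either code, where 0 genes (0%) were called in F and 7 (0.0324%) in M.

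Synpo2 had 349, 205 and 157 CPM in black rice F libraries, against 102, 104 and 122 CPM in control F libraries. In the M libraries it had 181, 183 and 124 CPM on black rice and 123, 108 and 86.9 CPM on control. Every black rice library was above every control library with the same code, with log2 differences of 1.12 ± 0.33 in F (adjusted p = 0.34) and 0.67 ± 0.33 in M (adjusted p = 0.60). In F the members with the smallest p beside Synpo2 were Cald1 at 0.86 ± 0.23, Dmd at 0.57 ± 0.16 and Myocd at 0.87 ± 0.31, and Srf was farthest against the others at -0.19. In M they were Myocd at 0.74 ± 0.31, Cnn1 at 0.88 ± 0.38, Kcnma1 at 0.41 ± 0.18 and Smtn at 0.49 ± 0.24, and Dmd was farthest against the others at -0.01. The smallest adjusted p was 0.30 in F and 0.53 in M.

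Dystrophin had the smallest p for a difference between the codes. Dmd, which links the cytoskeleton to the membrane, had 62.5, 54.6 and 60.8 CPM in black rice F libraries, against 35.1, 45.2 and 39.1 CPM in control F libraries. It had 28.9, 42.1 and 37 CPM in black rice M libraries, against 42.2, 29.5 and 40.3 CPM in control M libraries. The F groups were apart and the M groups overlapped, and the difference of the differences, F minus M, was 0.57 ± 0.22 with an adjusted p of 0.50. The same difference was -0.36 ± 0.23 for Srf, 0.40 ± 0.32 for Cald1 and 0.34 ± 0.28 for Pgm5, the others with the smallest p. It had a median of 0.11 over the members, with 23 of 31 above 0 against 51.2% of all genes, a count that ran from 18 to 25 over the other settings. Without black rice F replicate 1 it was 12, with a median of -0.06. No member passed this test, and 0 genes were called (0%).

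Control libraries of the Apc set stood below WT libraries in most members, again without a call. The summed level ran from 5056 over a median of 6773 to 7786 CPM in control libraries, and from 5822 over 8358 to 10726 CPM in WT libraries. Differences were below 0 for 29 of 31 members, against 49.1% of all genes, with a median of -0.22 against 0.00 over all genes. An unadjusted p under 0.05 with a lower level was found for 5 members, against 2.03% of all genes, and 0 genes were called (0%), with an adjusted p of 1 for the members.

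Cnn1 had the smallest p in this comparison. It had 256, 314 and 385 CPM in control F libraries and 430, 466 and 190 CPM in control M libraries. In WT libraries it had 547, 662 and 364 CPM for F and 489, 729 and 599 CPM for M. All 6 control libraries were below the WT mean, the ranges overlapped, and the log2 difference was -0.79 ± 0.27. Des, Tpm2 and Myl9 came next, with log2 differences of -0.64 ± 0.27, -0.49 ± 0.20 and -0.44 ± 0.19, and Ryr2 was farthest against the others at 0.04 ± 0.29.

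Black rice libraries set against WT libraries gave a smaller shift. Differences were above 0 for 24 of 31 members, against 50.1% of all genes, with a median of 0.13. Single libraries moved this median: it was 0.07 without black rice F replicate 1, 0.06 without black rice M replicate 1 and 0.20 without black rice M replicate 3. Among WT libraries it was 0.07 without F replicate 3, 0.05 without M replicate 1, and 0.21 without F replicate 1 or without M replicate 2. The count ran from 20 to 29 over these fits. An unadjusted p under 0.05 with a higher level was found for 4 members, against 3.28% of all genes: Myocd at 0.71 ± 0.22, Synpo2 at 0.56 ± 0.23, Cald1 at 0.37 ± 0.16 and Kcnma1 at 0.28 ± 0.13. Their smallest adjusted p was 0.59, and 3 genes in all (0.0139%) were called. Csrp1 was farthest against the others at -0.15 ± 0.22, and Acta2, Actg2, Des and Cnn1 lay between -0.07 and 0.09. These 3 comparisons share libraries, so they are not independent of each other.

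Between the codes of the Apc set, 18 of 31 members were higher in F libraries, against 51.3% of all genes, with 25 when library size alone was the scaling. No member passed, with 16 genes called in all (0.074%). Jph2, junctophilin 2, which holds the store close to the membrane, had a lowest value of 19.1, a median of 23.9 and a highest of 33.7 CPM in F libraries, against 15.2, 18.3 and 22.4 CPM in M libraries. The ranges overlapped and the log2 difference was 0.35 ± 0.10, with an adjusted p of 0.16 in edgeR and a call in DESeq2 (adjusted p = 0.048). Dmd at 0.26 ± 0.09, Cacna1c at 0.53 ± 0.20 and Mylk at 0.36 ± 0.14 came next, and Cnn1 was farthest the other way at -0.31.

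In the AOM set, diet left no common direction among the contractile genes. Over both codes 17 of 31 members had a difference above 0, against 46.5% of all 21895 genes tested, with a median of 0.04, and 0 genes (0%) were called. No member had an unadjusted p under 0.05, against 0.754% of all genes higher and 2.31% lower, and every member had an adjusted p of 1. The summed level was 12940 and 12502 CPM in black rice F libraries, and 4331, 8676 and 18990 CPM in black rice M libraries. It was 9816, 11662 and 11085 CPM in control F libraries, and 8820, 21194 and 8400 CPM in control M libraries.

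A few libraries decided these values. Without control M replicate 2 all 31 members were above 0, with a median of 0.27, and without black rice M replicate 3 there were 6, with a median of -0.24. Without control M replicate 3 there were 11, with a median of -0.06, and without black rice M replicate 1 there were 24, with a median of 0.17. With all 12 libraries 4 members were above 0, with a median of -0.19. The smallest p belonged to Ryr2 at 0.46 ± 0.48, Dmd at 0.16 ± 0.20, Actg2 at -0.31 ± 0.41 and Csrp1 at -0.23 ± 0.34.

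Acta2 had 1197 and 1275 CPM in black rice F libraries, against 917, 1258 and 1159 CPM in control F libraries. It had 365, 893 and 1738 CPM in black rice M libraries, against 838, 1965 and 740 CPM in control M libraries. The groups overlapped in both codes, with a black rice M library lowest and a control M library highest, and the difference over both codes was -0.03 ± 0.37.

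Actg2 had 1074 and 687 CPM in black rice F libraries, against 1351, 1333 and 946 CPM in control F libraries. It had 404, 756 and 1870 CPM in black rice M libraries, against 589, 2060 and 784 CPM in control M libraries. It was the member farthest against the small majority, at -0.31 ± 0.41, and its groups overlapped in both codes.

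Myh11 had 1784 and 2205 CPM in black rice F libraries, against 972, 1675 and 1562 CPM in control F libraries. It had 594, 1467 and 2716 CPM in black rice M libraries, against 1605, 2899 and 998 CPM in control M libraries. Black rice stood above control in F without overlap and not in M, and the difference over both codes was 0.16 ± 0.39.

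Cnn1 had 716 and 514 CPM in black rice F libraries and 159, 323 and 1178 CPM in black rice M libraries. In control libraries it had 666, 589 and 701 CPM for F and 314, 1627 and 424 CPM for M. The arms overlapped widely, with a difference of -0.30 ± 0.52.

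Des had 1664 and 1055 CPM in black rice F libraries and 396, 860 and 2373 CPM in black rice M libraries. In control libraries it had 1228, 1266 and 1192 CPM for F and 739, 2510 and 1059 CPM for M, and the difference was -0.04 ± 0.43. Synpo2 had 310 and 304 CPM in black rice F libraries, against 181, 157 and 221 CPM in control F libraries. In M libraries Synpo2 had 37.3, 90.5 and 307 CPM on black rice and 183, 415 and 208 CPM on control, and its difference over both codes was -0.08 ± 0.42.

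The F and M libraries of the AOM set pointed opposite ways. With code F, black rice stood higher in 26 of 31 members, against 51.6% of all genes, with a median of 0.42. In M libraries 29 of 31 were lower, against 54.6% of all genes, with a median of -0.31 and -0.07 over all genes. In F, with 2 black rice and 3 control libraries, 14 members had no overlap and were higher, against 8.38% of all genes, and 1 member, Tagln, had no overlap and was lower, against 11.1% of all genes. The 14 included Myh11, Cald1, Smtn, Synm, Flna, Synpo2 and Dmd. In M libraries 0 members had no overlap in either direction, against 7.03% of all genes higher and 7.28% lower. No gene was called in either code (0%). In F the direction held in the 11 fits that each left out 1 further library, with 23 to 26 members above 0 and medians from 0.31 to 0.45. Some of these fits held 1 black rice F library. Putting back the library with hepatocyte transcripts changed it: with all 12 libraries 13 of 31 members were above 0, with a median of -0.03. The M direction rested on single libraries: without control M replicate 2, 20 members were above 0 with a median of 0.27, and without black rice M replicate 1, 15 were with a median of -0.01. With library size alone, the median of all genes in M was -0.16.

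By role, differences in F libraries were above 0 for 6 of 9 genes of the actin filament, 8 of 9 of dense bodies and plaques and 5 of 6 channels and store proteins. In M libraries they were above 0 for 1 of 9, 0 of 9 and 0 of 6 of the same roles. The smallest p in F belonged to Dmd at 0.89 ± 0.30, Myocd at 1.45 ± 0.73, Ldb3 at 0.42 ± 0.22 and Ryr2 at 1.28 ± 0.71, with Actg2 farthest against the others at -0.46. In M it belonged to Dmd at -0.58 ± 0.27, Myocd at -1.32 ± 0.68, Ldb3 at -0.34 ± 0.20 and Kcnmb1 at -0.87 ± 0.52, with Mylk farthest against the others at 0.01. The smallest adjusted p was 0.98 in F and 0.37 in M.

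The difference between the codes was tested directly, and no member passed. The F minus M difference was above 0 for 28 of 31 members, against 53.9% of all genes, with a median of 0.65 and 0.08 over all genes. No gene was called (0%). Without control M replicate 2 the count was 18, with a median of 0.39, without black rice M replicate 1 the median was 0.34, and without black rice M replicate 3 the count was 31, with a median of 1.14. With all 12 libraries the count was 19. Dmd had the smallest p, at 1.46 ± 0.40 (adjusted p = 0.31). Its levels were 23.2 and 41.2 CPM in black rice F and 13.7, 17.2 and 21.5 CPM in control F libraries, and 10.7, 12.6 and 22.1 CPM in black rice M and 20.5, 25.5 and 24.9 CPM in control M libraries. The F groups were apart and the M groups overlapped in 1 library.

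Myocd and Ldb3 came next in that test. Myocd had 4.6 and 11.4 CPM in black rice F libraries, against 1.4, 2.43 and 5.06 CPM in control F libraries. In M libraries Myocd had 0.534, 1.82 and 4.39 CPM on black rice and 5.57, 7.2 and 3.99 CPM on control. The groups overlapped in both codes, and the F minus M difference was 2.76 ± 1.0 (adjusted p = 0.32). Ldb3, the member with the smallest range in this set, had an F minus M difference of 0.76 ± 0.29 (adjusted p = 0.32). Pgm5 had 1.40 ± 0.73 (adjusted p = 0.40), and Actg2 was farthest against the others at -0.31.

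**Figure D5:**
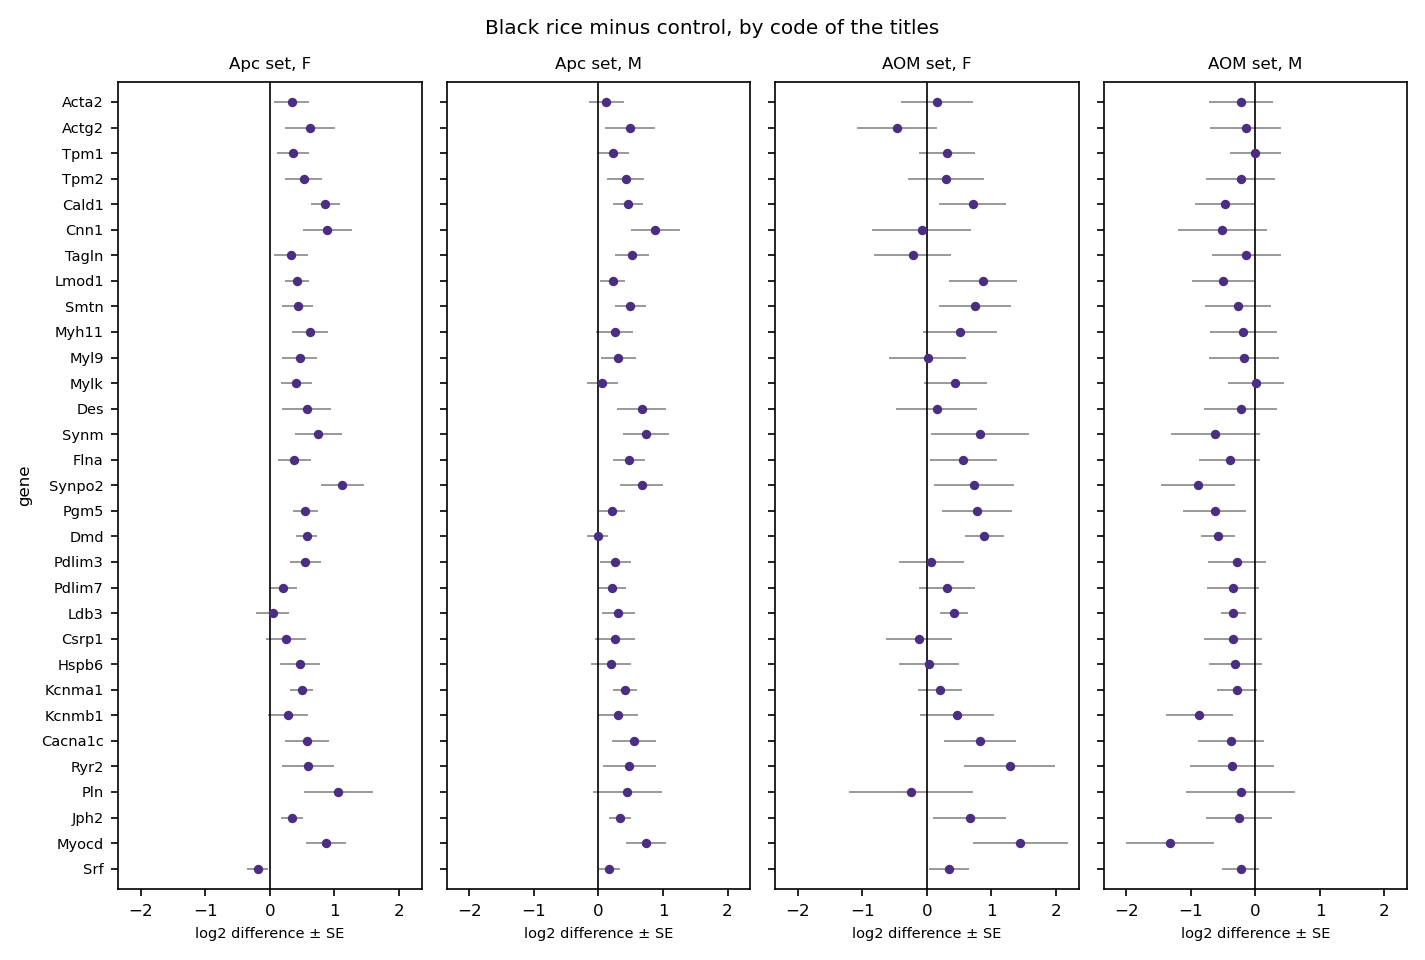
Fitted log2 difference, black rice minus control, with its SE for each member in the F and M libraries of the Apc and AOM sets. The medians were 0.49 and 0.33 in F and M of the Apc set, and 0.42 and -0.31 in F and M of the AOM set.

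Between the codes of the AOM set, 10 of 31 members were higher in F libraries, against 49.2% of all genes, and 17 with library size alone or with a block for the replicate number. The count was 4 with all 12 libraries or without black rice M replicate 1, 24 without black rice M replicate 3 and 27 without control M replicate 2. No member passed, with 8 genes called in all (0.0365%). Pdlim7, a PDZ and LIM protein of actin filaments, was farthest against the others at 0.42 ± 0.30. Dmd at 0.23 ± 0.20, Srf at -0.22 ± 0.21 and Myl9 at -0.29 ± 0.41 were the others with the smallest p.

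Members of the third set lay in nearly equal numbers on either side of 0. Differences were above 0 for 14 of 31 members, against 51.3% of all 20831 genes tested, with a median of -0.07. The count was 17 with library size alone and 23 with the replicate block. No member had an unadjusted p under 0.05, against 4.12% of all genes higher and 3.81% lower, the smallest adjusted p was 0.66, and 0 genes (0%) were called. No member had groups without overlap, against 3.13% of all genes with every black rice library higher and 1.56% with every one lower.

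Here too single libraries set the direction. Without control replicate 2 all 31 members were above 0, with a median of 0.39. Without control replicate 4 the count was 5, with a median of -0.33, and without black rice replicate 4 it was 4, with a median of -0.27. Without black rice replicate 1 or 2 it was 19 or 18.

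Acta2 had 1675, 1306, 2128 and 3025 CPM in black rice libraries, against 2043, 4142, 2232 and 502 CPM in control libraries. Actg2 had 1768, 1410, 2475 and 3101 CPM in black rice libraries, against 2520, 5491, 2756 and 406 CPM in control libraries. In both, control libraries were the highest and the lowest of the set, and the log2 differences were -0.22 ± 0.52 and -0.44 ± 0.60.

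Myh11 had 2826, 2527, 4861 and 5746 CPM in black rice libraries, against 3642, 5925, 3893 and 879 CPM in control libraries. Cnn1 had 847, 823, 1719 and 2414 CPM in black rice libraries, against 1325, 2967, 1730 and 226 CPM in control libraries. The black rice libraries lay inside the control range for both, with log2 differences of 0.07 ± 0.50 and -0.20 ± 0.64.

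Des had 1763, 1383, 2891 and 3600 CPM in black rice libraries, against 2620, 5774, 2864 and 402 CPM in control libraries. Synpo2 had 296, 369, 705 and 920 CPM in black rice libraries, against 524, 880, 641 and 90.4 CPM in control libraries. Only black rice replicate 4 of Synpo2 stood above every control library, and the log2 differences were -0.36 ± 0.63 and 0.01 ± 0.59.

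By role, 2 of 9 genes of the actin filament, 4 of 9 of dense bodies and plaques and 5 of 6 channels and store proteins were above 0. The smallest p belonged to channel, scaffold and regulator genes. Kcnma1 had 33.5, 37.8, 48.1 and 69.6 CPM in black rice libraries, against 28.6, 39.9, 37.9 and 20.9 CPM in control libraries. All 4 black rice libraries were above the control mean, the ranges overlapped, and the log2 difference was 0.50 ± 0.25 (adjusted p = 0.66). Myocd, at 0.59 ± 0.39, was farthest against the slight majority of lower members, followed by Ryr2 at 0.58 ± 0.38 and Dmd at 0.29 ± 0.23 among the smallest p.

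In the Apc set 2 further lists from the same pathways also stood mostly higher on black rice, and neither had a called gene. These lists were read in the same libraries and chosen with earlier results of these data known, so they are not independent of the members. Of 34 regulators of contraction (receptors, kinases, phosphatases and signalling proteins), 27 were higher in black rice than in control libraries, with a median log2 difference of 0.24 and 10 at an unadjusted p under 0.05, all higher. Over all genes 49.1% were above 0, 4.21% were higher at that p, and the median was -0.01. The smallest p belonged to Prkg1, the cyclic GMP-dependent kinase that relaxes smooth muscle, at 0.55 ± 0.13 (adjusted p = 0.18), and to Chrm3, the muscarinic receptor that drives gut contraction, at 1.58 ± 0.40 (adjusted p = 0.22). Of 27 genes of adhesion and the dystrophin complex, 22 were higher, with a median of 0.21, and 9 were higher and 2 lower at an unadjusted p under 0.05. Cnn2, a calponin of many cell types, was lower at -0.39 ± 0.10 (adjusted p = 0.22), and Itga9, an integrin, was higher at 0.57 ± 0.15 (adjusted p = 0.23). In the AOM set 17 of the 34 regulators and 12 of the 27 adhesion genes were higher on black rice, and in the third set 22 and 15 were, with 0 called in each.

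Markers of other cells went both ways between the diets of the Apc set, where 49.1% of all genes were above 0. Their part in the result was not tested. All 12 leukocyte markers were lower in black rice than in control libraries, with a median of -0.70, and their sum ran from 212 to 668 CPM on black rice and from 447 to 1240 CPM on control. All 10 markers of enteric neurons, which lie between the muscle layers, were higher on black rice with a median of 0.24, and lower in control than in WT libraries with a median of -0.51. All 5 mesothelial markers, of the cells that cover the outer gut wall, were higher on black rice, with a median of 1.04 and sums of 2.43 to 21.9 CPM on black rice and 2.14 to 7.02 CPM on control. Epithelial markers summed to 9512 to 13953 CPM on black rice and 10268 to 14666 CPM on control. Of the vessel wall lists, 5 of 8 pericyte and mural markers and 7 of 8 endothelial markers were lower on black rice, with medians of -0.14 and -0.10. All 8 hepatocyte markers were lower, with a median of -0.39. Fibroblast markers were higher in 5 of 8 and adipocyte markers in 5 of 5, with medians of 0.05 and 0.62.

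In the AOM set all 12 leukocyte markers were again lower on black rice, with a median of -0.67 and sums of 54.9 to 299 CPM on black rice and 152 to 905 CPM on control. Black rice M replicate 1, with the lowest contractile sum of the 11 libraries compared, also had the lowest enteric neuron sum, at 34 CPM. Black rice M replicate 2, with 1 of 31 members above the set median, had the highest, at 311 CPM. In the third set mesothelial markers were higher on black rice in 5 of 5, with sums of 28.3 to 35.4 CPM against 10.5 to 21.7 CPM on control and no overlap. The summed level of the contractile genes overlapped there, at 15647 to 36107 CPM on black rice and 5616 to 45325 CPM on control. Pericyte and vascular mural markers summed to 1813 CPM in black rice replicate 4 and to 371 CPM in control replicate 4, the highest and lowest of that set, and the part of these cells in the spread of the contractile genes was not tested.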

How the data were processed

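Bulk RNA sequencing of mouse intestinal tract was measured in 3 tables. The values are raw counts of reads per gene, deposited by the authors, with no normalization. Per the labels' protocols, RNA was taken with Trizol and mRNA selected with oligo(dT). Counting used featureCounts 2.0.1 with Ensembl 104 annotation in the third set and the AOM set, per the file headers. The submitters' processing notes list HISAT2 and featureCounts without versions, and GRCm39. The headers record no strand option, and the counting command of the Apc table was not given in the sources used here. The members and gene lists were chosen with earlier results of these data known.

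CPM values were counts scaled by the library total. Each table was tested on its own in R 4.3.3 with the quasi-likelihood F test of edgeR 4.0.16, after its filter on low counts and with TMM scaling, over all genes tested. A gene was called at a Benjamini-Hochberg adjusted p under 0.05. Differences are log2, the SE being the difference over the root of F. The 13 comparisons were diet over both codes, within F and within M, the difference between these, and F minus M in the Apc and AOM sets, control minus WT and black rice minus WT in the Apc set, and diet in the third set. The AOM comparisons left out the library of black rice F replicate 3. Tests of diet were checked on simulated counts. A log2 change of 1 was recovered in 67% of 100 changed genes for the Apc set, 22% for the AOM set and 55% for the third set. A change of 2 was recovered in 94%, 79% and 98%. False calls numbered 1, 5 and 13 in the same order. Changes below 1 were not simulated, so recovery at the size of the member medians is not known. The percentages describe the 100 changed genes, and recovery for the members as a group was not measured. The median ratio of the highest to the lowest library was 5.1 for the members of the AOM set, against 3.05 over all genes. In the set without an F or M letter it was 7.11 against 1.86, and in the Apc set 2.47 against 2.73. The percentages may therefore not hold for the members. Of 42 pairs of libraries within a group, 0 held identical counts.

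Alternatives were DESeq2 1.42.0, RLE scaling, library size alone, no filter, a replicate block, the compared groups alone, all 12 AOM libraries, and leaving out each library. Values per library were given for Acta2, Actg2, Myh11, Cnn1, Des and Synpo2 under diet, or as lowest, median and highest where a group was larger. Where fewer than 4 members passed, the 4 with the smallest p were named, and so was the member farthest against the majority. Genes outside the members were named from fixed lists, by the 2 smallest p where none passed. Members with no overlap between groups, and the per-code values of Dmd, Myocd and Ldb3, were described after their values were seen where these rules did not name them. Figures were drawn with matplotlib 3.10.9. Intervals of counting error do not cover amplification, since no molecular identifiers are described.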

Additional observations from a re-analysis of the deposited data

Results flagged for a closer look

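Tagln stood at 34.8 CPM in black rice replicate 4 of the third set, against 11.7 to 14.7 CPM in the other 3 black rice libraries, a gap of 0.868 of the range of the group. The rule was applied to 64 groups of the third set and marked this 1, where chance marks about 1 in 20 groups. The counts of Tagln share most of their exon bases with other genes.

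The AOM library left out of the comparisons, black rice F replicate 3, had a sum of 226032 CPM for hepatocyte markers, against at most 108 CPM in the AOM control libraries. In that library Myh11 had 29.2 CPM, Acta2 28.3 CPM and Des 32.6 CPM, while Cald1 had 181 CPM and Dmd 28.5 CPM.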

How the results depend on the processing

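No member was called in any of the 13 comparisons by edgeR under any setting, leaving out each library included. DESeq2 called 3 members in the Apc diet comparison, 1 in its F libraries and 1 in Apc F minus M. DESeq2 called more genes: 193 for Apc diet, 169 in F, 146 in M, 103 for F minus M of diet, 23 for control minus WT, 67 for black rice minus WT, 512 for Apc F minus M, and in the AOM set 12 for diet, 3 in F, 231 in M, 106 for the difference and 77 for F minus M, with 117 in the third set. Without the filter, 23 genes were called for Apc diet, 15 in F, 16 in M, 6 for the difference and 6 for black rice minus WT. Library size alone gave 2 in Apc M and 0 for black rice minus WT, RLE scaling gave 0 for the last, and the compared groups alone gave 1 for Apc diet, 0 in M and 0 for black rice minus WT.

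Same-numbered libraries deviated together in some pairs and not in others. Correlations ran from -0.341 to 0.43 over 18 pairs in the Apc set and from -0.0874 to 0.385 over 5 in the AOM set. In the third set they ran from -0.604 to 0.449 over 4 pairs. Pairs above 0.1 numbered 6, 3 and 1 in that order of sets. Same-numbered pairs of Apc control M and WT M libraries, picked after the values were seen, stood at 0.382, 0.376 and 0.424, and their different-numbered pairs at 0.000191 or less. Elsewhere different-numbered pairs were also high, at 0.359 for Apc black rice F replicate 2 with control F replicate 1. In the third set black rice replicate 4 with control replicate 2 stood at 0.566. Deviations from a group mean are tied to each other, so these correlations are not independent. Whether a number marks a shared batch was not given. The replicate block gave 1 called gene for Apc diet, 2 in M, 0 for black rice minus WT and 9 for Apc F minus M. Without it they were 3, 7, 3 and 16. No member was called with or without the block.

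Leaving out each library, called genes ran from 1 to 6 for Apc diet, 0 to 4 in F, 0 to 11 in M, 0 to 7 for the difference, 0 to 2 for black rice minus WT, 10 to 67 for Apc F minus M, 6 to 9 for AOM F minus M and 0 to 1 in the third set. The directions of the following log2 differences turned, and the cause was not tested. For Apc diet, Srf was 0.01 with DESeq2 or RLE and 0.00 without the filter, and in M Dmd was 0.01 under the same 3 settings. Library size alone gave Des 0.02 for black rice minus WT and Mylk -0.02 in AOM M. All 12 AOM libraries gave Myh11 -0.11 for diet and Ldb3 -0.10 in F. The replicate block gave Acta2 0.02 in the third set. Leaving out each library, Srf ran from -0.05 to 0.06 for Apc diet, Dmd from -0.12 to 0.09 in M and Ryr2 from -0.26 to 0.24 for control minus WT. For black rice minus WT, Acta2 ran from -0.19 to 0.08, Actg2 from -0.13 to 0.30, Cnn1 from -0.10 to 0.23 and Des from -0.23 to 0.17. For AOM diet, Acta2 ran from -0.27 to 0.26, Actg2 from -0.61 to 0.08, Myh11 from -0.06 to 0.40, Cnn1 from -0.79 to 0.27, Des from -0.41 to 0.32, Synpo2 from -0.56 to 0.16, Dmd from -0.07 to 0.33 and Csrp1 from -0.43 to 0.08. In AOM M Mylk ran from -0.34 to 0.58, and Actg2 from -1.08 to 0.30 for the AOM difference between codes. For AOM F minus M, Myl9 ran from -0.49 to 0.10 and Dmd from -0.00 to 0.40. In the third set Acta2 ran from -0.54 to 0.32, Actg2 from -0.79 to 0.17, Myh11 from -0.24 to 0.47, Cnn1 from -0.55 to 0.37, Des from -0.72 to 0.26 and Synpo2 from -0.33 to 0.42.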

Other observations

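Within the AOM codes the regulators of contraction followed the members. Of 34, 28 were higher on black rice in F libraries, with a median of 0.45, and 8 were higher in M libraries, with a median of -0.33. Enteric neuron markers did not share that sign: 9 of 10 were higher in both F and M libraries, with medians of 0.32 and 0.68.

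Fibroblast markers were lower on black rice in 8 of 8 in AOM M libraries, with a median of -0.49, and in 4 of 8 in AOM F libraries, with a median of -0.05. In the third set all 5 adipocyte markers were higher on black rice, with a median of 1.36 and sums of 56 to 93.6 CPM on black rice and 43.4 to 99.2 CPM on control. No gene of any list was called.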
